A study of Mus musculus with 16 samples.

Results

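The Plagl1 imprinted locus was examined CpG by CpG over 60 kb of mouse chromosome 10 (mm9, chr10:12795000-12855000). The locus was chosen by its methylation in young- and old-passage cells, so that every value of these 2 groups is given as a description with no test. Of 664 CpGs that the mm9 sequence holds in this stretch, 50 were covered by at least 10 reads in at least 1 library, out of 1320646 covered CpGs in the whole series. The imprinting control region (ICR) held 42 of them and the flanks 8.

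Plagl1 encodes a zinc finger transcription factor that restrains cell proliferation, and it is an imprinted gene, normally expressed from the paternal allele. Its ICR spans the promoter and acquires methylation in the oocyte, so that in somatic cells the maternal copy is normally methylated and silent and the paternal copy is not. ZFP57, a zinc finger protein that recruits TRIM28, recognizes the methylated hexamer TGCCGC and is known to keep methylation at ICRs.

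Reduced Representation Bisulfite Sequencing (RRBS) had been performed on 16 libraries of E14 cells, mouse embryonic stem cells (mESCs) of the 129/Ola strain, undifferentiated or differentiated. Undifferentiated mESCs were grown in serum and LIF. Each of 8 conditions had 2 replicates. YP-mESCs had been cultured for about 14 passages and OP-mESCs for about 70; the passages of the S33Y clones are not given in the labels. OP-S33Y #1 and OP-S33Y #2 were each a single clone of YP-mESCs that overexpressed a stable, S33Y-mutated β-catenin and was grown in the conditions of the OP-mESCs; β-catenin is the effector of canonical Wnt signaling. The last 4 conditions were YP-mESCs transduced with a control shRNA (shCtrl) or with 1 shRNA against β-catenin (shβcat #1), analysed as mESCs and as embryoid bodies (EBs) at day 8. EBs were grown in the mESC medium without LIF. Bisulfite converts unmethylated cytosines, so that the percentage of reads that keep a cytosine gives the methylation level, averaged here over all cells and both alleles.

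The ICR of the study's table lies at chr10:12809697-12812131 and is 2435 bp long, with 121 CpGs. Plagl1 (ENSMUSG00000019817.11, chr10:12810497-12851500, plus strand in GENCODE vM1) was the only gene annotated in the 60 kb, and 24 of its 27 transcripts start within the ICR. The 42 covered CpGs of the ICR lay between 12810598 and 12810994, a span of 398 bp or 16.3% of the ICR, with 39 CpGs before and 40 after them that were not covered. Of the 42, 28 fell in the noncoding first exons, which end at 12810830, and 14 in the first intron. The covered CpGs grouped in pieces bounded by CCGG, the site that MspI cuts; the enzyme is not given in the sources used here. CpGs of 1 piece are read by the same reads and are not independent of each other.

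The sequences of 4 of these pieces are shown because the values below are read on them (mm9, plus strand, 5′ to 3′). The first lies in the first intron within the ICR and holds the only covered copies of the ZFP57 hexamer, TGCCGC, which is in capitals. The second adjoins it and ends at the last covered CpG of the ICR. In the second, in the downstream intron piece and in the upstream intergenic piece, capitals mark every CpG.
ICR, first intron, chr10:12810845-12810919: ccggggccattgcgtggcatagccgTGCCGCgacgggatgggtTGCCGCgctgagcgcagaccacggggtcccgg
ICR, first intron, chr10:12810916-12810996: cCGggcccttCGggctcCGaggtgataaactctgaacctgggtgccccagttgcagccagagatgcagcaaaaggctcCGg
Downstream intron, chr10:12828234-12828365: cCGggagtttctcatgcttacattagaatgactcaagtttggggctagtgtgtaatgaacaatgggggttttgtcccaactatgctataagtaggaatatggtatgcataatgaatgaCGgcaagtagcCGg
Upstream intergenic, chr10:12800737-12800807: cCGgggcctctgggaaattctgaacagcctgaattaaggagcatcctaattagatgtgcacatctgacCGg
The first piece holds 11 CpGs in 75 bp, and the downstream piece 3 in 132 bp. TGCCGC was searched on both strands, its copies overlap no other motif searched, and a match is a description only. Of 22380 windows of 75 bp that start at a protein-coding gene, 6.28% held it. The whole Plagl1 ICR held 6 copies, which ranked 8 by copies per kb among the 19 ICRs searched.

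At the ICR, methylation was close to complete in 6 conditions, intermediate in YP-mESCs and nearly absent in OP-mESCs. The level of a library was the mean percentage over its covered CpGs of the ICR. YP-mESCs had 72.7% in replicate 1 and 61.3% in replicate 2, whereas OP-mESCs had 2.85% and 5.58%. The condition means were 67.0% ± 8.0 and 4.22% ± 1.9 (SD, n = 2), and the libraries of these 2 groups did not overlap. OP-S33Y #1 had 93.4% and 94.3%, and OP-S33Y #2 had 90.9% and 91.6%. Thus the 4 libraries of the S33Y clones lay above both YP-mESC and both OP-mESC libraries.

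The cells that received an shRNA were also above the YP-mESCs from which they had been made. The shCtrl mESCs had 95.4% and 96.1%, and the shβcat #1 mESCs 95.9% and 96.3%. In EBs, the levels were 94.3% and 95.7% with shCtrl and 95% and 93.6% with shβcat #1. From the highest condition mean down, the order was shβcat #1 mESCs (96.1% ± 0.26), shCtrl mESCs (95.7% ± 0.46), shCtrl EBs (95% ± 1.0), shβcat #1 EBs (94.3% ± 0.99), OP-S33Y #1 (93.9% ± 0.64), OP-S33Y #2 (91.3% ± 0.49), YP-mESCs and OP-mESCs (SD, n = 2). The replicates of neighbours in the first 5 places overlapped, and from OP-S33Y #1 down each condition lay apart from the next.

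**Figure D1:**
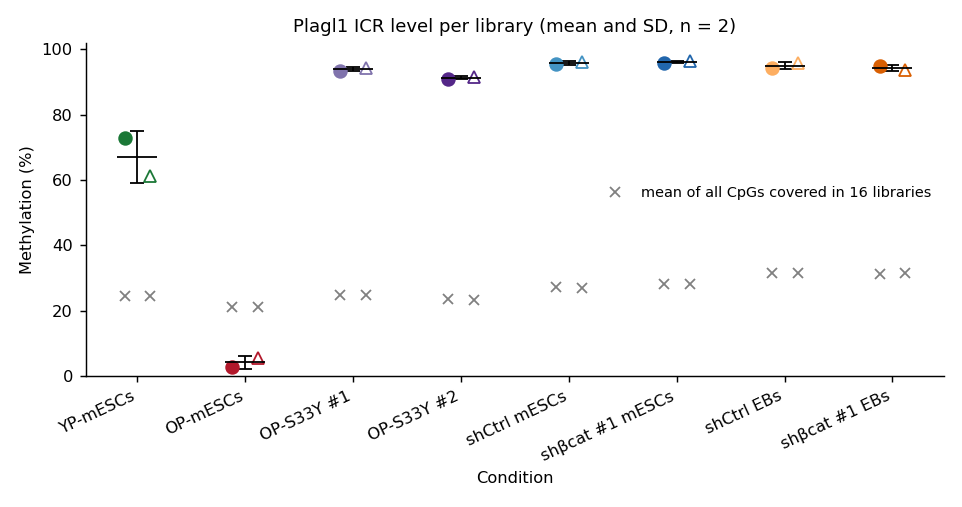
Methylation level (%) of the Plagl1 ICR in each library, by condition; filled circles are replicate 1, open triangles replicate 2, and black bars the mean ± SD of 2 replicates. Grey crosses are the mean of the 329078 CpGs covered in all 16 libraries, which lie between 21.1% and 31.5%, while the ICR runs from 2.85% to 96.3%.

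The mean over the 329078 CpGs covered in every library is given beside the Plagl1 ICR as a description. An average of so many CpGs, set beside a locus chosen by its change, does not show whether that change is local. This mean was 24.4% in both YP-mESC libraries and 21.1% in both OP-mESC libraries. In the S33Y clones it was 23.4% to 24.8%, and in the shRNA mESCs and EBs 27.0% to 31.5%. At the ICR, each level rested on 29 to 42 CpGs with a median of 23 to 56 reads per CpG. When the reads of a piece and strand were counted once, at least 137 to 460 separate reads lay behind a library's level. Libraries of the series had 18919219 to 40519010 reads on CpGs, and intervals on read shares cover counting error only.

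The shRNA libraries, mESCs and EBs alike, covered stretches that the others did not. At the ICR, 7 CpGs were covered in no library of YP-mESCs, OP-mESCs or S33Y clones, among them those of 2 short pieces of 34 and 28 bp. Over the genome, 8.91% of the CpGs found in every shRNA library were in none of the other 8, and 0.524% the other way round. The library set and the shRNA treatment cannot be told apart in this design. On the 26 ICR CpGs covered in all 16 libraries, the level moved by less than the replicate SD in 7 conditions, and to 96.6% in shCtrl EBs.

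Along the ICR, methylation in OP-mESCs was low at every CpG measured. All 35 CpGs of replicate 1 and all 29 of replicate 2 were under 25%. The lowest and highest condition means, here and below, are limited to CpGs covered in both replicates. Where several CpGs tied, the first along the ICR is named. In OP-mESCs the lowest mean was 0%, at 12810619, the first CpG that all groups shared, and at others after it. The highest, 11.4% at 12810708, came from replicate 2, where 2 of 10 reads were methylated (20%, 95% Wilson interval 5.67% to 51.0%), against 1 of 36 in replicate 1. Of the 29 CpGs with 10 reads in the 4 libraries, 29 were lower in OP-mESCs by more than 25 points, with differences from -77.4 to -43.7 points, as were 3.38% of 365703 CpGs over the genome. Since the locus was chosen on this contrast, nothing is read from that count.

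In YP-mESCs the CpGs of the ICR spread widely and the replicates differed. Replicate 1 had 19 CpGs between 25% and 75% and 16 above, and replicate 2 had 30 and 5. The lowest condition mean was 50.5% at 12810846 and the highest 77.4% at 12810686. The 2 replicates were apart by 17.0 points on average and by more than 25 points at 8 of 35 CpGs. By piece, the first exon piece at 12810619 had 73.2% ± 4.3, the next one at 12810693 had 67.2% ± 4.0, the intronic piece with the hexamers had 61.2% ± 15 and the last one 67.4% ± 13 (SD, n = 2). The exon piece at 12810693 averaged 2 strands whose replicates differed in opposite directions, with 79.4% in replicate 1 and 52.8% in replicate 2 on the plus strand, and 60.1% and 73.4% on the minus strand. Of the 8 CpGs that were more than 25 points apart, 4 were in the exon and 4 in the intron, and the largest gap, 35.3 points, was at 12810708 in the exon.

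**Figure D2:**
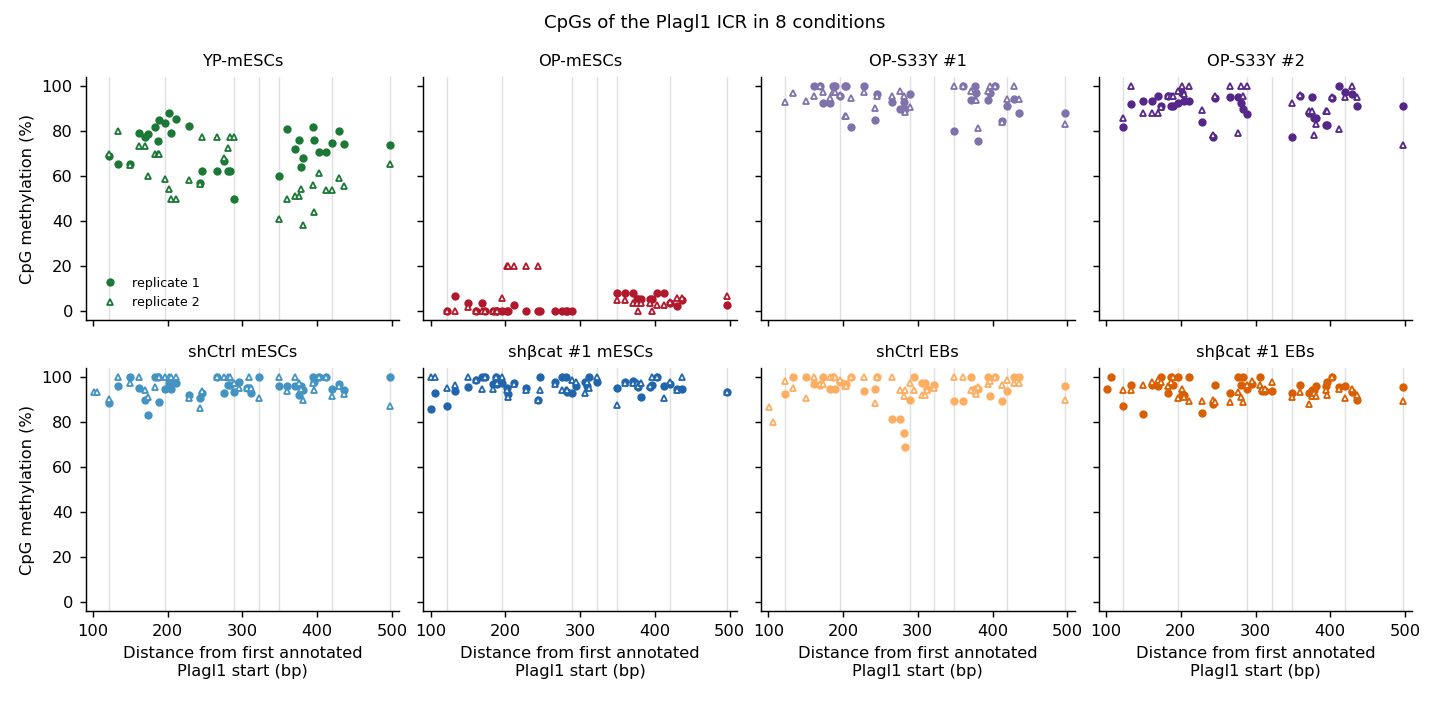
Methylation (%) of each covered CpG of the Plagl1 ICR against its distance in bp from the first annotated Plagl1 start, 1 panel per condition; filled circles are replicate 1, open triangles replicate 2, and grey lines CpGs within CCGG. In OP-mESCs no CpG exceeds 20%, in YP-mESCs they run from 38.2% to 88.2%, and in the other conditions from 68.8% to 100%.

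The S33Y clones were highly methylated along the whole covered stretch. In OP-S33Y #1 the lowest condition mean was 78.5% at 12810878, and 12810666 reached 100%. In OP-S33Y #2 the lowest was 77.9% at 12810740 and the highest 98.4% at 12810699. Across the 4 libraries, 1 CpG in 1 library was at or below 75%, namely the last CpG, 12810994, with 73.9% in OP-S33Y #2 replicate 2. OP-S33Y #1 replicate 1 lacked 3 CpGs at the start of the stretch.

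In the shRNA mESCs every covered CpG was above 75%. The lowest condition means were 87.3% at 12810670 with shCtrl and 89.9% at 12810740 with shβcat #1, while 100% was reached at 12810684 and 12810670, respectively. In EBs, the lowest means over both replicates were 81.5% at 12810780 with shCtrl and 86.6% at 12810725 with shβcat #1, and 100% was reached at 12810684 and 12810900. At 12810603, the 1 shCtrl EB library that covered it had 80% (12 of 15 reads). The value at 12810780 came with the largest difference between EB replicates, 25.5 points, since replicate 1 of the shCtrl EBs had 68.8%. At this CpG and its neighbours that library had 16 reads.

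The first covered CpG, 12810598, was reached only by shRNA libraries, and had 93.3% in 1 library of shCtrl mESCs, a mean of 92.9% in shβcat #1 mESCs, 86.7% in 1 library of shCtrl EBs and 94.7% in 1 of shβcat #1 EBs. The last, 12810994, was covered in all 16 libraries. It had 69.5% in YP-mESCs, 4.76% in OP-mESCs, 85.8% in OP-S33Y #1, 82.6% in OP-S33Y #2, and 92.7% to 93.5% in the shRNA conditions. Neither end of the covered stretch was an edge within the ICR, because no neighbouring CpGs there differed by more than 25 points in any condition mean. Where methylation ends within the ICR was not measured, as the ICR runs 901 bp before and 1137 bp beyond the covered CpGs.

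The 2 covered hexamer CpGs, 12810873 and 12810891, followed the rest of the ICR. They averaged 79.0% in YP-mESC replicate 1, against 72.3% at the other 33 CpGs, but 53.7% against 61.8% in replicate 2. The 8 other CpGs of the same piece, leaving out that of its closing CCGG, had 70.3% and 49.3%. Against these the hexamer CpGs were higher in both replicates, so that the sign in replicate 2 depended on the CpGs they were set against. In OP-mESCs the hexamer CpGs had 5.41% and 3.7%, against 2.69% and 5.72% at the other CpGs of the ICR. The 8 others of the same piece had 7.23% and 2.91%, which reversed the sign in both replicates. In the 12 remaining libraries, the difference between hexamer CpGs and the other CpGs of the ICR ran from -2.77 to 3.77 points. The other 4 hexamers of the ICR were not covered.

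The S33Y clones were first compared with each other, which asks whether the 2 clones differ at this locus. OP-S33Y #2 was lower than OP-S33Y #1 by 2.61 points at the ICR, and the replicates did not overlap. On reads summed over the 32 shared CpGs, the difference was -2.97 points (95% interval -6.38 to 0.429), and the quasi-binomial F test gave an adjusted p of 0.23. Without replicate 1 of OP-S33Y #1 the difference was -3.06 points and the adjusted p 0.041, but that fit takes its spread from the 2 libraries of OP-S33Y #2, pooled over the ICRs, and assumes that the lone library of OP-S33Y #1 varies alike. Of the 14 ICRs tested, 21.4% were called, 2 higher and 1 lower. A CpG was called when the adjusted p was below 0.05 and the means were over 25 points apart. None of 35 CpGs of the locus was called by the binomial model with an overdispersion shared by all CpGs, or by Fisher's exact test, and 6 had an unadjusted p under 0.05. Genome-wide, 0.318% of CpGs were called. The share of CpGs with an unadjusted p under 0.05 over the genome was not counted, here or in the comparisons below. Nothing is therefore read from the unadjusted counts.

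Silencing of β-catenin did not give a detectable difference at Plagl1 in mESCs. The shβcat #1 mESCs were higher than the shCtrl mESCs by 0.389 points, with overlapping replicates. On summed reads the difference was 0.654 points (95% interval -1.70 to 3.01), with an adjusted p of 0.92 by the quasi-binomial F test, and 0% of 19 ICRs were called. None of 43 CpGs was called by the binomial model or Fisher's exact test, where 0.111% were called over the genome, and 3 had an unadjusted p under 0.05. The largest difference at the ICR was 12.7 points at 12810670, with an adjusted p of 0.36 by the binomial model.

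In EBs, shβcat #1 and shCtrl differed by -0.687 points at the ICR, again with overlapping replicates. On summed reads the difference was -1.73 points (95% interval -4.12 to 0.656), with an adjusted p of 0.79 by the quasi-binomial F test, whereas 5.26% of 19 ICRs were called, 1 of them lower. None of the 43 CpGs was called by the binomial model or Fisher's exact test, against 0.0883% genome-wide, and 4 had an unadjusted p under 0.05. The differences at single ICR CpGs ran from -10.2 to 12.9 points.

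Differentiation was examined by setting EBs against mESCs with the same shRNA. At the ICR, shCtrl EBs differed from shCtrl mESCs by -0.728 points, with overlapping replicates. Summed reads gave a difference of 0.189 points (95% interval -2.17 to 2.55) with an adjusted p of 1.0 by the quasi-binomial F test, and 5.26% of 19 ICRs were called. With shβcat #1 the EBs were lower by 1.8 points and the replicates did not overlap. The difference on summed reads was -2.20 points (95% interval -4.58 to 0.186), with an adjusted p of 0.25, and 10.5% of 19 ICRs were called. Exact permutation of 2 libraries against 2 allows no p below 0.33.

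**Figure D3:**
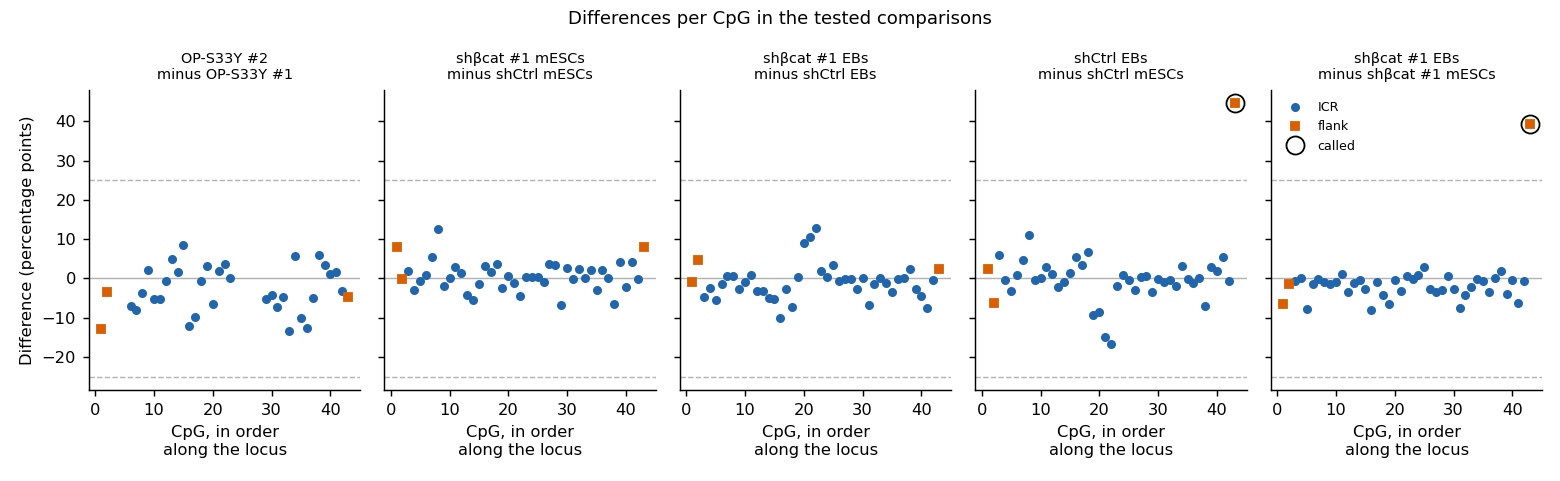
Difference in methylation (percentage points) at each CpG of the locus in the 5 tested comparisons, in order along the locus; circles are CpGs of the ICR, squares flanking CpGs, black rings called CpGs and dashed lines 25 points. The ICR CpGs lie between -16.7 and 12.9 points, and the 2 called points are the same intronic CpG, with 44.6 and 39.2.

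Downstream of the ICR, 1 intronic CpG gained methylation from mESCs to EBs with either shRNA. This CpG, 12828235, lies 17241 bp beyond the last covered CpG of the ICR, in an intron of Plagl1, and is the first CpG of the downstream intron sequence shown above. In shCtrl mESCs it had 0 methylated reads of 16 and 0 of 30, with upper limits of the 95% Wilson interval of 19.4% and 11.4%. In shCtrl EBs it had 42.5% (17 of 40 reads, 95% Wilson interval 28.5% to 57.8%) and 46.7% (7 of 15 reads, 24.8% to 69.9%). The rise was 44.6 points, with an adjusted p of 1.4e-06 by the binomial model.

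With shβcat #1, the same CpG had 12.9% and 2.86% in mESCs, and 40% and 54.2% in EBs. The rise was 39.2 points, with an adjusted p of 5.3e-05 by the binomial model. EB libraries thus lay above the mESC libraries in both pairs, which share no library. Between the EBs the difference was 2.50 points, with an adjusted p of 1.0. It was the only called CpG of the 43 tested in each comparison, where 6.42% and 6.60% of all CpGs were called, so that the number of called CpGs at the locus was not above that over the genome. Over all CpGs tested, the mean rose by 4.49 points with shCtrl and by 2.81 points with shβcat #1, and the part of this general rise in the result was not tested.

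In the cells with no shRNA, 12828235 was also low, with 12.5% and 9.62% in YP-mESCs, 0% of 28 reads in the 1 OP-mESC library that covered it, 6.67% and 10% in the libraries of OP-S33Y #1, and 0% and 7.41% in those of OP-S33Y #2. The other 2 CpGs of this piece, 12828352 and 12828363, were covered in 8 libraries. In the only EB library among them, shβcat #1 replicate 1, both had 55.0% (11 of 20 reads), and in the 7 mESC libraries they ranged from 0% to 25%. The nearest annotated exon downstream starts 266 bp further on. The intronic piece therefore had low methylation in all mESCs, including those where the ICR was close to fully methylated.

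**Figure D4:**
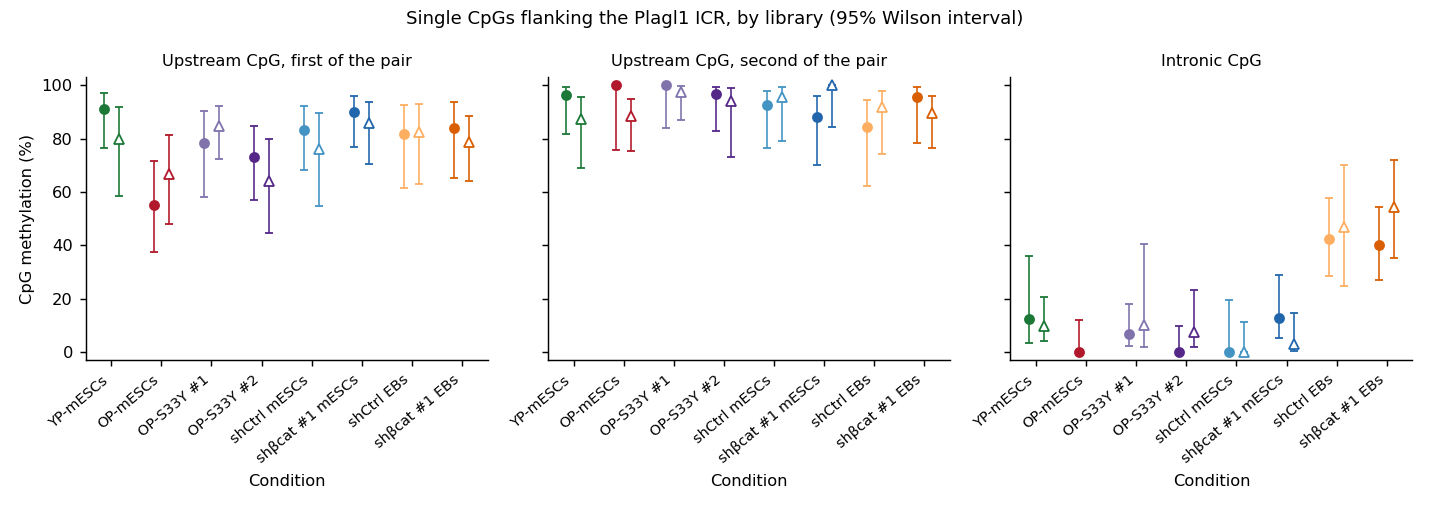
Methylation (%) of 3 CpGs outside the ICR in each library, by condition: the upstream pair, 12800738 and 12800805, and the intronic CpG 12828235; filled circles are replicate 1, open triangles replicate 2, and error bars the 95% Wilson interval of the reads. The intronic CpG lies between 0% and 12.9% in mESC libraries and between 40% and 54.2% in EB libraries.

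Upstream of the ICR, a pair of intergenic CpGs was covered in all 16 libraries, 9692 bp before the start of Plagl1. The second of the pair, 12800805, was highly methylated throughout, from 84.2% to 100%. In OP-mESCs it had 100% and 88.4%, while 9814 bp further on the first ICR CpG shared with it had 0%. This step of -94.2 points was the edge between flank and ICR in OP-mESCs. In YP-mESCs, S33Y clones and shRNA cells no such step of over 25 points was seen on that side.

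The first of the pair, 12800738, was lower in OP-mESCs, with 55.2% (16 of 29 reads, 95% Wilson interval 37.5% to 71.6%) and 66.7% (18 of 27 reads, 47.8% to 81.4%). YP-mESCs had 90.9% and 80%, and OP-S33Y #2 had 73.0% and 64.0%. OP-S33Y #1 had 78.3% and 84.6%, and the shRNA libraries 76.2% to 90%. Between the clones the difference of -13.0 points had an adjusted p of 0.91 by the binomial model. Within the pair, 67 bp apart, the level differed by 33.3 points in OP-mESCs and by 26.8 points in OP-S33Y #2, and by less than 25 points elsewhere.

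On the downstream side, the fall from the last ICR CpG to 12828235 was an edge in every condition but OP-mESCs. The intronic CpG minus the last ICR CpG was -58.5 points in YP-mESCs, -77.5 points in OP-S33Y #1, -78.9 points in OP-S33Y #2, -93.5 and -85.5 points in shCtrl and shβcat #1 mESCs, and -48.4 and -45.6 points in their EBs. In OP-mESCs the ICR and the intron were both low. Further into the gene, 12836886 was covered in 4 libraries, with 100% in shCtrl mESCs, 80% in shβcat #1 mESCs, 42.1% in shCtrl EBs and 80% in shβcat #1 EBs, 1 library each. The last 2 CpGs, 12847012 and 12847047, had 100% and 90% in the only library that covered them, shCtrl mESC replicate 1, with 10 reads.

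Among the ICRs, Plagl1 stood near the top in all conditions but OP-mESCs. It had the 4th highest level of 19 ICRs in YP-mESCs, the 10th of 18 in OP-mESCs, and the 1st to 4th in the other conditions. The median of the other ICRs was 38.0% in YP-mESCs, 4.36% in OP-mESCs and 44.5% to 56.3% in the rest, against 91.3% to 96.1% at Plagl1. From its highest to its lowest condition, Plagl1 spanned 91.9 points, second to Kcnq1ot1 with 94.8 among the 18 ICRs that had a value in every condition. The lowest condition was OP-mESCs, whose level was used to choose the locus, so nothing is read from this rank.

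The ICR most like it was that of Nnat, which encodes neuronatin, a membrane proteolipid of neural and endocrine cells. Pearson's r over the 8 condition means was 0.991, and the mean absolute difference was 3.63 points. Nnat had 72.8% in YP-mESCs, 4.36% in OP-mESCs, 86.2% and 83.7% in the S33Y clones, and 91.0% to 95.5% in the shRNA conditions, although only 1 library gave its value in YP-mESCs, OP-mESCs and OP-S33Y #1. Grb10, an adaptor of growth factor receptors, followed with r = 0.99, but at lower levels, from 1.99% in OP-mESCs and 32.8% in YP-mESCs to 55.3% in shβcat #1 EBs. Inpp5f, which encodes a phosphoinositide phosphatase, had r = 0.974, with 1.39% in OP-mESCs, 23.6% in YP-mESCs and 41.6% to 50.7% elsewhere. These correlations describe 8 conditions that share libraries and depth. Without OP-mESCs they were 0.90, 0.96 and 0.97.

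**Figure D5:**
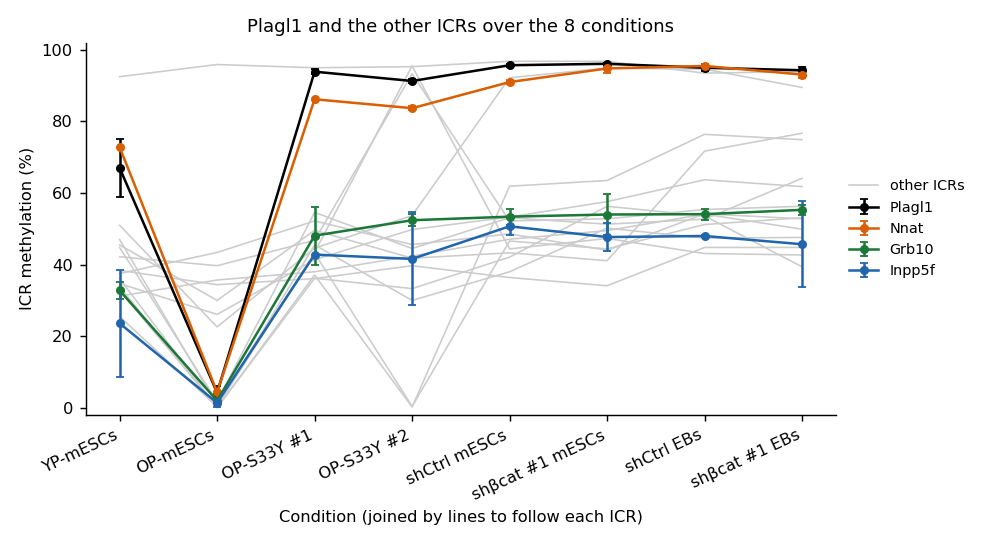
Methylation level (%) of ICRs in the 8 conditions, as condition means with SD where 2 libraries gave a value; Plagl1 is black, the 3 ICRs with the highest Pearson's r with it are coloured, and the other 14 are grey. Nnat runs close to Plagl1 throughout, while Grb10 and Inpp5f follow it at levels up to 55.3% and 50.7%.

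Over the genome, 18543 windows of 1 kb outside the locus had at least 5 CpGs covered in every library, and their levels rested on these CpGs alone. The level of Nnat rested on whichever of its CpGs each library covered, so that its distance from Plagl1 cannot be set against theirs. The 5 nearest differed from the Plagl1 ICR by 9.83 to 10.8 points on average. They were a window at chr14:120547000-120547999 with no annotated gene, and windows in Kif5c, a kinesin motor gene (chr2:49555000-49555999), in Kcnk2, a potassium channel gene (chr1:191166000-191166999), in Sohlh2, a germ cell transcription factor gene (chr3:54986000-54986999), and in 1700021K19Rik (chr16:32836000-32836999). In OP-mESCs their levels were 44.2%, 58.4%, 34.7%, 30.9% and 67.8%. These windows differed most from Plagl1 in OP-mESCs. The locus was chosen with its level in that group known, so nothing is read from this. The Plagl1 level in this search also rested on whichever of its CpGs each library covered.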

How the data were processed

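RRBS of 16 libraries (8 conditions, 2 replicates) was used. Per the labels and the submitters' processing notes, libraries were made with NuGEN Ovation kits and processed with CASAVA 1.8.2, Trim Galore 0.2.8 and Bismark 0.7.9 on mm9; duplicate handling is not given in the sources used here. For each CpG cytosine, the authors deposited the read count (at least 10, not normalized) and the percent of methylated and unmethylated reads, with replicates separate. Duplicates, if kept, would make reads less independent than the intervals take them to be.

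From these, methylated reads were recovered as count times percent, and the 2 strands of each CpG were summed. An ICR's level was the mean percentage of its CpGs (at least 2), with the coordinates of the study's table of 20 ICRs. Single CpGs that reached 10 reads in each of 4 libraries entered a binomial model (group as the only term, 1 overdispersion shared by all CpGs, chi-square test, Benjamini-Hochberg adjustment over all CpGs) and counted as called when the adjusted p was below 0.05 and the means differed by over 25 points. For ICRs, summed reads entered a quasi-binomial F test, with 1 overdispersion and adjustment over the ICRs. Reads that span several CpGs enter at each. Intervals are Wilson's for read shares, and for ICR differences normal, with standard errors scaled by the overdispersion. Both tests were run on simulated data. The simulated ICRs had intermediate levels and larger changes than the tested differences at Plagl1, so the ICR test was not tried near full methylation.

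The locus and its lists were chosen with earlier results of these data known. The text names the lowest and highest CpG of each condition, the first and last of the ICR, those beside steps over 25 points, every called CpG, flanking clusters over 500 bp apart, the 3 ICRs with the highest Pearson's r and the 5 nearest 1 kb windows. Alternatives were 20 reads, separate strands, each replicate left out, a replicate block, Fisher's exact test, 10 points, limma 3.58.1 on logit levels held between 0.005 and 0.995, read-weighted levels, CpGs common to all 16 libraries, and the part of the ICR at chr10:12810619-12810995. The study calls the replicates biological; replicate numbers were not taken to pair libraries. Sequences and genes came from NCBIM37 (mm9) and GENCODE vM1. Software was R 4.3.3, samtools 1.23.1 and Python 3.11.15 with scipy 1.17.1, numpy 2.4.6 and pandas 2.3.3.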

Additional observations from a re-analysis of the deposited data

How the results depend on the processing

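Of 156 values under the alternatives, 147 were kept. For counts of called CpGs this meant the same count. For ICR differences it meant the same direction and side of the threshold, and for condition levels a shift below the replicate SD. Part of the 147 was fixed in advance. With 2 replicates, a condition level with 1 left out always stays within the SD. At the ICR, limma and the replicate block reuse the same difference, so that only their p could move. With at least 20 reads per CpG, 0 CpGs of the locus were called from shCtrl mESCs to EBs. There 12828235 was no longer tested, as it has 15 reads in shCtrl EB replicate 2 and 16 in shCtrl mESC replicate 1. With each replicate left out, the ICR difference between the S33Y clones ran from -3.06 to -2.16 points, with an adjusted p of 0.041 to 0.76 over all its alternatives. The lowest p came without replicate 1 of OP-S33Y #1 (-3.06 points), where the spread rests on the 2 libraries of the other clone, pooled over the ICRs, and the lone library is assumed to vary alike. The difference between shβcat #1 and shCtrl EBs ran from -1.40 to 0.029 points and was above 0 without replicate 2 of shβcat #1 (0.0159) or of shCtrl (0.029). That between shCtrl EBs and mESCs became 0.597 points with 20 reads and 0.95 on the CpGs common to all libraries; the cause was not tested, and no alternative passed the threshold in either. The level was 90.5% in OP-S33Y #2 with strands separate, and in shCtrl EBs 96.3% with 20 reads and 96.6% on the common CpGs. With the replicate block the calls were unchanged, with 0 CpGs called in the 3 comparisons between clones or shRNAs and 1 in each of the 2 between EBs and mESCs; the replicate deviations of the paired libraries correlated between -0.034 and 0.053 in the tested comparisons. Depth limits single CpGs, where 10 reads give steps of 10 points.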
